A study of Mus musculus with 79 samples.

Results

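The 9 genes described here encode the receptors for dopamine and noradrenaline that were followed in 4 kinds of neuron of the mouse medial prefrontal cortex: the alpha-1 adrenergic receptors Adra1a, Adra1b and Adra1d, the alpha-2 adrenergic receptors Adra2a and Adra2c, the beta-1 adrenergic receptor Adrb1, and the dopamine receptors Drd1, Drd2 and Drd5. They were taken by symbol, and they are 9 of the 38879 genes in the deposited table. Each of 79 libraries held RNA of 130 cells of 1 type from 1 mouse: excitatory pyramidal neurons (PYR), or 1 of 3 classes of inhibitory interneuron, which are marked by parvalbumin (PV), by somatostatin (SST) and by vasoactive intestinal peptide (VIP). Cells were seen with RNAscope probes in frozen coronal sections and cut out by laser.

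The UCMS group was 10 male C57Bl/6J mice kept singly and exposed for 5 weeks to an unpredictable series of mild stressors (unpredictable chronic mild stress), among them restraint, predator odor, wet bedding and forced bath. The control group was 10 male C57Bl/6J mice kept in groups with littermates and without these stressors. Both groups went through behavioural tests in the last weeks, and age is not given in the sources used here. Each type had 10 UCMS and 10 control libraries, except PV with 9 UCMS and 10 control libraries, since UCMS mouse U609 had no PV library. Stress and single housing cannot be told apart in this design. The study asked how gene expression in each type differs between stressed and control mice.

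Noradrenaline reaches the prefrontal cortex in axons of the locus coeruleus, and dopamine in axons of the ventral tegmental area. Alpha-1 receptors couple to Gq and phospholipase C, alpha-2 receptors and D2-like receptors to Gi, and beta receptors and D1-like receptors to Gs and adenylyl cyclase. In prefrontal circuits both transmitters are known for setting the excitability of pyramidal cells and interneurons in working memory and during stress. Alpha-2A receptors also act as autoreceptors on noradrenaline axons.

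All positions are on GRCm38, the build named in the submitters' processing notes, and come from the GENCODE M21 annotation. Adra1a (ENSMUSG00000045875) lies at chr14:66635251-66771168 on the plus strand and Adra1b (ENSMUSG00000050541) at chr11:43774606-43901210 on the minus strand. Adra1d (ENSMUSG00000027335) lies at chr2:131545850-131562283 on the minus strand. Adra2a (ENSMUSG00000033717), a gene of 1 exon, lies at chr19:54044151-54048982 on the plus strand, and Adra2c (ENSMUSG00000045318), also of 1 exon, at chr5:35278319-35281763 on the plus strand. Adrb1 (ENSMUSG00000035283) lies at chr19:56722199-56733113 on the plus strand. Drd1 (ENSMUSG00000021478) lies at chr13:54051183-54055705 on the minus strand, Drd2 (ENSMUSG00000032259) at chr9:49340627-49408177 on the plus strand, and Drd5 (ENSMUSG00000039358), again of 1 exon, at chr5:38319367-38322518 on the plus strand. Exons of Adra1d share 147 bp with the antisense gene Gm14285, and the Drd5 exon shares 1531 bp with the antisense gene Gm26560. Whether reads were counted by strand is not given in the sources used here, so reads in these stretches could come from either gene.

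Values are the authors' normalized counts per gene and library, that is, reads divided by a size factor for the library. Libraries held 3642579 to 13529571 reads on genes and 9033 to 20307 genes with at least 1 read. The probed genes were highest in their own types: Slc17a7 averaged 12973 normalized counts in UCMS and 14218 in control PYR libraries, and Pvalb 874 in UCMS and 816 in control PV libraries. Slc17a7, the vesicular glutamate transporter of pyramidal cells, was also read in the interneuron libraries, averaging 2819 normalized counts in control PV libraries, 3262 in control SST libraries and 4794 in control VIP libraries. The 6 pyramidal marker genes, Slc17a7 among them, summed on average to 30447 in control PYR libraries. Their sums averaged 10047 in control PV, 11211 in control SST and 19358 in control VIP libraries. The part of pyramidal RNA in the receptor values of interneurons was not tested. Fewer cells with a receptor and less receptor RNA per cell cannot be told apart in such pools. Libraries with the same number in their titles were taken as coming from the same mouse across types.

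Adra1b was higher in VIP neurons and Adra1d lower in VIP neurons than in the mean of the other types, in UCMS and in control mice. In control mice Adra1a was also called higher in PV and lower in PYR neurons, and Adra1d higher in PYR neurons, against the mean of the other types. These calls were not made in UCMS mice, and the difference between the arms in them is not shown by that. Adra2a was read in 1 of 10 control PV libraries. In control mice, with limma on log2(normalized count + 4), the mouse as a block and Benjamini-Hochberg adjustment over 17498 genes, 4 of the 8 receptors with a mean of at least 10 differed among the 4 types at an adjusted p under 0.05, against 12.3% of all genes tested. These were Adra1b (adjusted p = 5.35e-06), Adra1a (adjusted p = 0.000166), Adra1d (adjusted p = 0.00129) and Adra2a (adjusted p = 0.00684). Drd2 (adjusted p = 0.171), Adra2c (adjusted p = 0.411), Adrb1 (adjusted p = 0.472) and Drd1 (adjusted p = 0.875) did not pass, and Drd5 was below the mean of 10 and was not tested among types.

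Without the 5 control mice that had a library under 6000000 reads (low-read mice), a setting chosen after seeing the data, 2 of the 8 passed in control mice, as Adra1d then had an adjusted p of 0.138 and Adra2a of 0.0817. Adra1a still differed among the types, but its single contrasts given further on lost their calls in PYR minus the other types (adjusted p = 0.0874), PYR minus SST (adjusted p = 0.0711) and PV minus the other types (adjusted p = 0.149). These estimates were -1.23, -1.615 and 1.08, against -1.87, -2.25 and 1.42 with all control mice. Adra1d in PYR minus VIP was 3.67, against 3.98, and Adra2a in PV minus SST was -3.52, against -3.50. This setting left out 5 of the 10 control mice, so fewer mice and read depth cannot be told apart in the lost calls.

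The UCMS mice, which are other animals, gave the type comparison a second time. Over 17638 genes, 3 of the same 8 receptors passed, against 16.3% of all genes: Adra1b (limma, adjusted p = 9.11e-05), Adra2c (adjusted p = 0.0217) and Adra1d (adjusted p = 0.0499). Adra1a (adjusted p = 0.0779), Adra2a (adjusted p = 0.324), Drd2 (adjusted p = 0.328), Drd1 (adjusted p = 0.408) and Adrb1 (adjusted p = 0.454) did not. Adra1b and Adra1d therefore passed in both sets of mice. With the 79 libraries of both arms in 1 fit, a comparison added after seeing the data, 6 of the 8 receptors passed, Drd2 and Adra2c among them (adjusted p = 0.0152 and 0.0138), against 24.7% of 17427 genes. Without the minimum mean, 1 of the receptors, Adra1b, passed in UCMS mice.

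**Figure D1:**
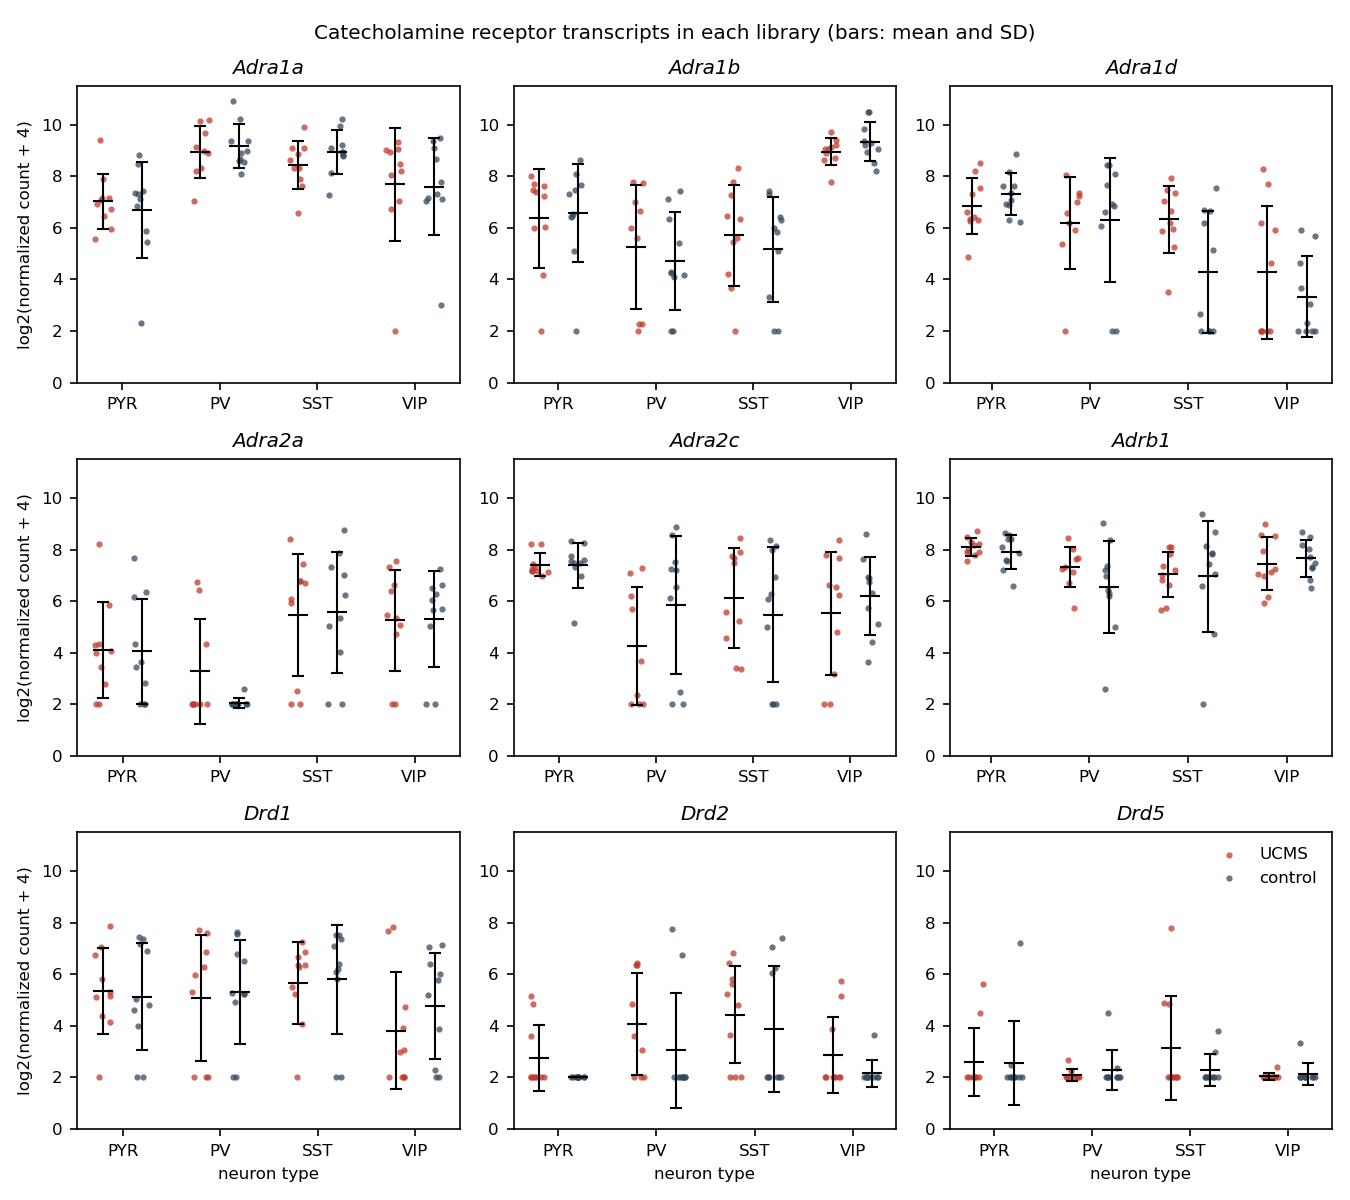
Level of each receptor in each library, as log2(normalized count + 4) on the vertical axis (2 is 0 reads), by neuron type on the horizontal axis. Points are libraries (UCMS in red, left of control in blue; n = 10 each, UCMS PV n = 9), and bars give the mean and SD. Adra1b sits highest in VIP libraries, Adra2a lies at or next to 0 in all 10 control PV libraries, and Drd2 and Drd5 are at 0 in most libraries.

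In the pairs of types, the share of all genes called in either direction was 11.3% in UCMS and 8.32% in control mice for PYR against PV, 6.26% in UCMS and 4.53% in control mice for PYR against SST, and 5.32% in UCMS and 4.12% in control mice for PYR against VIP. It was 5.24% in UCMS and 3.68% in control mice for PV against SST, 11% in UCMS and 6.83% in control mice for PV against VIP, and 4.39% in UCMS and 2.93% in control mice for SST against VIP. These shares are the background for the calls of single pairs given for each receptor.

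Adra1b, a Gq-coupled receptor, was the receptor with the clearest type pattern, and VIP neurons held the most of it. In VIP neurons its normalized count ranged from 213 to 827 with a median of 528 in UCMS libraries, and from 290 to 1447 with a median of 600.7 in control libraries. In PYR neurons it ranged from 0 to 253 with a median of 156 in UCMS libraries and from 0 to 395 with a median of 122 in control libraries. All 20 VIP libraries thus held Adra1b reads, and the VIP mean was 732 ± 412 (SD, n = 10) in control mice. PV neurons averaged 83.7 ± 85.4 in UCMS mice (SD, n = 9) and 47.8 ± 59.7 in control mice (SD, n = 10). SST neurons averaged 94.8 ± 102 in UCMS and 63.2 ± 60.3 in control mice (SD, n = 10 each).

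In control mice no PV or SST library reached the lowest VIP library for Adra1b. The VIP library was the highest of the 4 in 8 of the 9 UCMS mice with all 4 types and in 10 of 10 control mice. VIP neurons exceeded the mean of the other 3 types by 3.16 log2 units in UCMS mice (SE 0.59, limma, adjusted p = 3.36e-05) and by 3.85 in control mice (SE 0.68, adjusted p = 9.68e-06). Higher values of this contrast were called for 3.76% of genes in UCMS mice and 2.33% in control mice. Of the pairs, PV minus VIP was -3.62 in UCMS mice (adjusted p = 0.000115) and -4.62 in control mice (adjusted p = 7.18e-06), SST minus VIP was -3.25 in UCMS mice (adjusted p = 0.000884) and -4.16 in control mice (adjusted p = 0.00019), and PYR minus VIP was -2.59 in UCMS mice (adjusted p = 0.0134) and -2.76 in control mice (adjusted p = 0.0319). For PYR minus VIP the call of UCMS mice was lost with a pseudocount of 1 (adjusted p = 0.0626) and without the minimum mean (adjusted p = 0.0505). That of control mice was lost with a pseudocount of 1 (adjusted p = 0.109), without the minimum mean (adjusted p = 0.0859), with edgeR (adjusted p = 0.194) and without mouse U1, U7, U8 or U10 (adjusted p up to 0.18). PV neurons were below the mean of the other types by -1.68 in UCMS mice (adjusted p = 0.065) and by -2.32 in control mice (adjusted p = 0.0159), and the call in control mice was lost without mouse U3 or U9, with a pseudocount of 1 (adjusted p = 0.0519), with edgeR (adjusted p = 0.168) and without the low-read mice (adjusted p = 0.174). In the order of the levels, VIP came first and PYR second in both arms, and PYR, PV and SST did not differ from each other at an adjusted p under 0.05 in any pair.

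Adra1a, which also signals through Gq, followed another order, with the highest means in PV and SST neurons and the lowest in PYR neurons. In PV neurons its normalized count ranged from 126 to 1153 with a median of 495 in UCMS libraries and from 267 to 1908 with a median of 486 in control libraries. In PYR neurons it ranged from 44.0 to 675 with a median of 124 in UCMS libraries and from 0.929 to 450 with a median of 145 in control libraries. The ranges overlapped, although every PV library held Adra1a reads. SST neurons averaged 405 ± 244 in UCMS and 563 ± 314 in control mice, and VIP neurons 331 ± 212 in UCMS and 310 ± 253 in control mice (SD, n = 10 each).

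PYR neurons lay below the mean of the other types in Adra1a by -1.33 log2 units in UCMS mice (SE 0.48, limma, adjusted p = 0.0864) and by -1.87 in control mice (SE 0.44, adjusted p = 0.00118), a contrast in which 3.66% of genes in UCMS and 2.8% in control mice were called lower. PYR minus PV was -1.93 in UCMS mice (adjusted p = 0.0293) and -2.47 in control mice (adjusted p = 0.000268), and the call of UCMS mice was lost with a pseudocount of 1 (adjusted p = 0.122). PYR minus SST was -1.40 in UCMS mice (adjusted p = 0.193) and -2.25 in control mice (adjusted p = 0.00197). PV neurons exceeded the mean of the other types by 1.24 in UCMS mice (adjusted p = 0.117) and by 1.42 in control mice (adjusted p = 0.0246), where 4.46% and 3.65% of genes were called higher in UCMS and control mice. The PV call was lost without mouse U1, U4, U8 or U9, at adjusted p up to 0.0784, and without the minimum mean (adjusted p = 0.0702). The neighbours PV and SST did not differ past the threshold in either arm, with PV minus SST at 0.22 in control mice (95% interval -0.84 to 1.28).

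Adra1d, the third alpha-1 subtype, was highest in PYR and lowest in VIP neurons of control mice. In PYR neurons it ranged from 24.9 to 358 with a median of 87.8 in UCMS libraries and from 71.3 to 465 with a median of 146 in control libraries. In VIP neurons it ranged from 0 to 308 with a median of 10.6 in UCMS libraries and from 0 to 56.3 with a median of 2.60 in control libraries. The control PYR and VIP libraries did not overlap, while those of UCMS mice did. VIP libraries held fewer reads than PYR libraries, with medians of 9421670 and 11544672 in UCMS mice and 7767370 and 11515045 in control mice. The part of read depth in the Adra1d values was not tested. PV neurons averaged 105.2 ± 78.1 in UCMS mice (SD, n = 9) and 154 ± 130 in control mice (SD, n = 10), and SST neurons 102 ± 72.0 in UCMS and 48.2 ± 62.4 in control mice (SD, n = 10 each).

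VIP neurons lay below the mean of the other types in Adra1d by -2.17 log2 units in UCMS mice (SE 0.65, limma, adjusted p = 0.0209) and by -2.64 in control mice (SE 0.76, adjusted p = 0.0212). Lower values of this contrast were called for 2.91% of genes in UCMS and 1.91% in control mice. PYR neurons exceeded the other types by 1.25 in UCMS mice (adjusted p = 0.307) and by 2.66 in control mice (adjusted p = 0.0136), a direction called for 4.52% and 3.46% of genes in UCMS and control mice. PYR minus VIP was 2.57 in UCMS mice (adjusted p = 0.0303) and 3.98 in control mice (adjusted p = 0.00186), and PV minus VIP was 1.90 in UCMS mice (adjusted p = 0.126) and 2.99 in control mice (adjusted p = 0.0285). PYR minus SST was 0.51 in UCMS mice (adjusted p = 0.866) and 3.01 in control mice (adjusted p = 0.0357). Among control mice the contrast PYR minus SST lost its call without U2, U4, U6, U8 or U10, PV minus VIP without U5, U6, U7, U9 or U10, and VIP against the other types without U5, U6, U7 or U9. PYR minus SST was also not called with a pseudocount of 1 (adjusted p = 0.05), without the minimum mean (adjusted p = 0.0716) or with DESeq2 (adjusted p = 0.0774). PV minus VIP was not called with a pseudocount of 1 (limma, adjusted p = 0.0598) or without the minimum mean (adjusted p = 0.0587). With edgeR on recovered reads the difference of Adra1d among the types of control mice had an adjusted p of 0.0752, and no contrast of Adra1d given here was called in control mice, with adjusted p from 0.0663 for PYR minus VIP. None was called without the low-read control mice either, with adjusted p from 0.072 for PYR minus VIP. In UCMS mice PYR minus VIP was not called without the minimum mean (adjusted p = 0.0677).

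The 3 alpha-1 genes together give the subtype make-up of each type, once each value is divided by the length of the gene's exons. In GENCODE M21 these lengths are 8728 bp for Adra1a, 3382 bp for Adra1b and 1899 bp for Adra1d. The annotation used for counting may differ, and the shares depend on these lengths. Undivided, Adra1a averaged 172 and Adra1d 142 in UCMS PYR, 162 and 180 in control PYR, 593 and 105.2 in UCMS PV, and 681 and 154 in control PV libraries. Adra1b made up 71.8% ± 17.8 of the summed alpha-1 level per kb in UCMS and 81.1% ± 11.9 in control VIP libraries (SD, n = 10 each). In PYR libraries Adra1d had the largest mean share, 54.1% ± 24.1 in UCMS and 59.8% ± 19.9 in control mice (SD, n = 10 each). In PV libraries Adra1a had 47.3% ± 25.3 in UCMS mice (SD, n = 9) and 49.7% ± 28.2 in control mice (SD, n = 10), next to Adra1d with 36.8% ± 26.01 in UCMS and 42.2% ± 25.98 in control mice. In SST libraries Adra1a had 39.9% ± 24.6 in UCMS and 66.0% ± 26.9 in control mice, while Adra1d had 39.04% ± 21.9 in UCMS and 18.5% ± 21.0 in control mice (SD, n = 10 each). The summed alpha-1 level itself averaged 226 ± 90.0 normalized counts per kb in UCMS and 259 ± 127 in control VIP libraries (SD, n = 10 each). It lay between 128 and 148 in the other types of UCMS mice and between 109 and 173 in those of control mice, as group means.

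**Figure D2:**
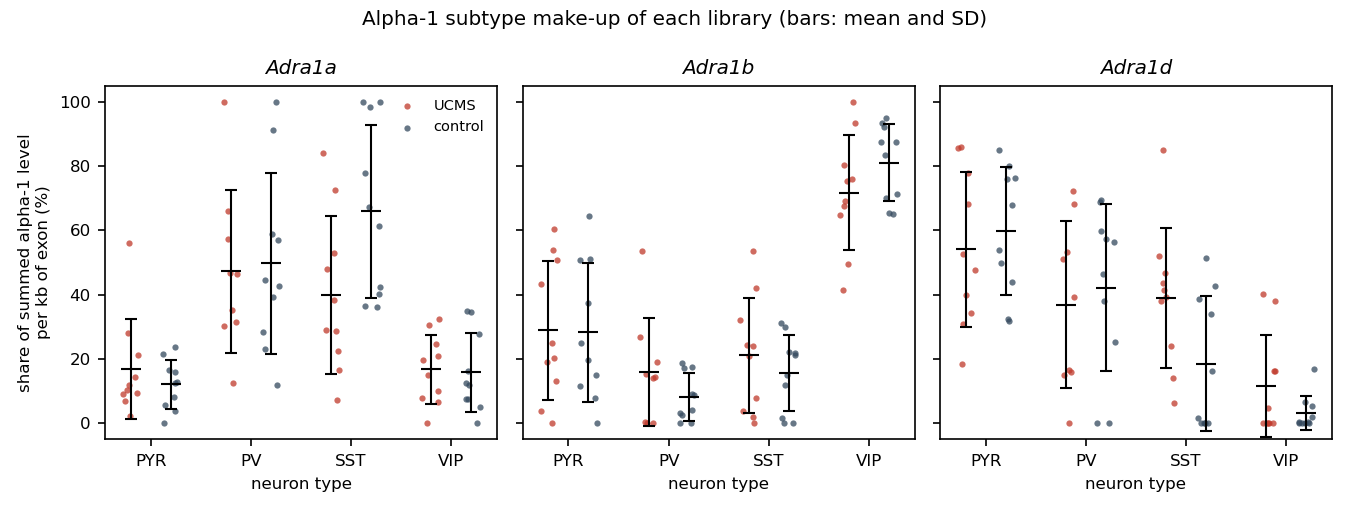
Share of the summed alpha-1 level per kb of exon (vertical axis, percent) that each subtype had in each library, by neuron type. Points are libraries (UCMS in red, left of control in blue), and bars give the mean and SD. Adra1b takes the largest mean share in VIP libraries (71.8% in UCMS, 81.1% in control), Adra1d in PYR libraries, and Adra1a in PV and SST libraries. In UCMS SST libraries Adra1a and Adra1d have nearly the same mean share (39.9% and 39.04%).

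Adra2a, the alpha-2A receptor that couples to Gi, was lowest in PV neurons of control mice. It had reads in 3 of 9 UCMS PV libraries, at 16.1, 82.4 and 102 normalized counts, and in 1 of 10 control PV libraries, at 1.99, which was 1 read. In SST neurons it ranged from 0 to 331 with a median of 81.5 in UCMS libraries and from 0 to 424 with a median of 54.0 in control libraries. It was detected in 8 of 10 UCMS and 8 of 10 control SST libraries, and likewise in 8 of 10 UCMS and 8 of 10 control VIP libraries. The highest control PV library, at 1.99, lay below the medians of control SST libraries, 54.0, and control VIP libraries, 55.2. VIP neurons averaged 64.6 ± 64.1 in UCMS and 59.0 ± 45.5 in control mice, and PYR neurons 41.0 ± 89.0 in UCMS and 38.3 ± 64.3 in control mice (SD, n = 10 each). Of the PYR sums, 70.8% in UCMS and 52.8% in control mice came from a single library.

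PV neurons lay below the mean of the other types in Adra2a by -1.35 log2 units in UCMS mice (SE 0.76, limma, adjusted p = 0.291) and by -2.91 in control mice (SE 0.75, adjusted p = 0.00355). Lower values in PV neurons were called for 6.57% of genes in UCMS and 3.7% in control mice. PV minus SST was -1.87 in UCMS mice (adjusted p = 0.298) and -3.50 in control mice (adjusted p = 0.00838), and PV minus VIP was -1.67 in UCMS mice (adjusted p = 0.262) and -3.25 in control mice (adjusted p = 0.0113). In the test of a stress effect that differs between types Adra2a had an adjusted p of 1.00. The median over all genes of PV minus the other types was -0.18 in UCMS mice and -0.08 in control mice. Without the control mice that had a low-read library, PV minus SST was no longer called (adjusted p = 0.124).

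Adra2c, the other Gi-coupled alpha-2 gene, had its highest means in PYR neurons. In PYR neurons it ranged from 122 to 296 with a median of 145 in UCMS libraries and from 31.9 to 316 with a median of 179 in control libraries. In PV neurons it ranged from 0 to 150 with a median of 8.71 in UCMS libraries and from 0 to 465 with a median of 116 in control libraries. All 20 PYR libraries held reads, as did 6 of 9 UCMS and 8 of 10 control PV libraries. SST neurons averaged 127 ± 120 in UCMS and 113 ± 124 in control mice, and VIP neurons 103 ± 111 in UCMS and 110 ± 112 in control mice (SD, n = 10 each). In UCMS mice PYR neurons exceeded the mean of the other types by 2.09 log2 units (SE 0.66, limma, adjusted p = 0.0271), and in control mice by 1.54 (SE 0.72, adjusted p = 0.25). PYR minus PV was 3.12 in UCMS mice (adjusted p = 0.00402) and 1.53 in control mice (adjusted p = 0.364), and PV neurons lay below the other types by -2.07 in UCMS mice (adjusted p = 0.0338) and by -0.50 in control mice (adjusted p = 0.788). Without the minimum mean, the calls of UCMS mice against the other types were lost for PYR (adjusted p = 0.0788) and for PV neurons (adjusted p = 0.0936). In the test of stress by type Adra2c had an adjusted p of 1.00.

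Adrb1, the Gs-coupled beta-1 receptor, was read in 78 of 79 libraries and in every type. In PYR neurons it ranged from 185 to 413 with a median of 266 in UCMS libraries and from 92.8 to 398 with a median of 251 in control libraries. PV neurons averaged 176 ± 86.0 in UCMS mice (SD, n = 9) and 152 ± 156 in control mice (SD, n = 10). SST neurons averaged 149 ± 81.5 in UCMS and 221 ± 196 in control mice, and VIP neurons 214 ± 151 in UCMS and 219 ± 105.1 in control mice (SD, n = 10 each). Among the pairs of types within an arm the difference with the lowest adjusted p was PYR minus SST in UCMS mice, at 1.05 log2 units (95% interval 0.05 to 2.06, limma, adjusted p = 0.284). In control mice PYR minus SST was 0.93 (95% interval -0.46 to 2.31), and these bounds allow differences of that size.

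Drd1, the Gs-coupled D1 receptor, was the dopamine receptor read in most libraries, 62 of 79. It ranged from 0 to 227 with a median of 33.8 in UCMS PYR libraries and from 0 to 172 with a median of 26.5 in control PYR libraries. Means were 74.98 ± 78.8 in UCMS PV neurons (SD, n = 9) and 70.0 ± 71.1 in control PV neurons (SD, n = 10). SST neurons averaged 68.0 ± 46.3 in UCMS and 92.0 ± 68.1 in control mice, and VIP neurons 46.4 ± 87.3 in UCMS and 50.02 ± 51.4 in control mice (SD, n = 10 each). The groups overlapped in every pair of types, and no pair passed the threshold in either arm.

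Drd2, the Gi-coupled D2 receptor, had reads in 26 of 79 libraries, more often in SST and PV than in PYR and VIP neurons. It was read in 7 of 10 UCMS and 4 of 10 control SST libraries, and in 6 of 9 UCMS and 2 of 10 control PV libraries. In PYR neurons it was read in 3 of 10 UCMS libraries, at 8.07, 25.1 and 31.5 normalized counts, and in 0 of 10 control libraries, which allows a group mean of up to 0.25 normalized counts, counting error only. VIP neurons had reads in 3 of 10 UCMS libraries and in 1 of 10 control libraries, at 8.53. SST neurons averaged 35.5 ± 37.5 in UCMS and 43.1 ± 62.5 in control mice (SD, n = 10 each), with a highest library of 109 in UCMS and 168 in control mice. Differences among types did not pass the threshold in either arm, although SST minus the mean of the other types was 1.25 in UCMS mice (limma, adjusted p = 0.471) and 1.47 in control mice (adjusted p = 0.226).

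Drd5, the second D1-like receptor, was at the limit of detection, with reads in 15 of 79 libraries. Its median was 0 in every type and arm. Single libraries carried most of the reads: 81.0% of the UCMS SST sum lay in 1 library with 217 normalized counts, and 98.9% of the control PYR sum in 1 library with 143. In the other groups the highest library had between 1.33 and 44.8 normalized counts.

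**Figure D3:**
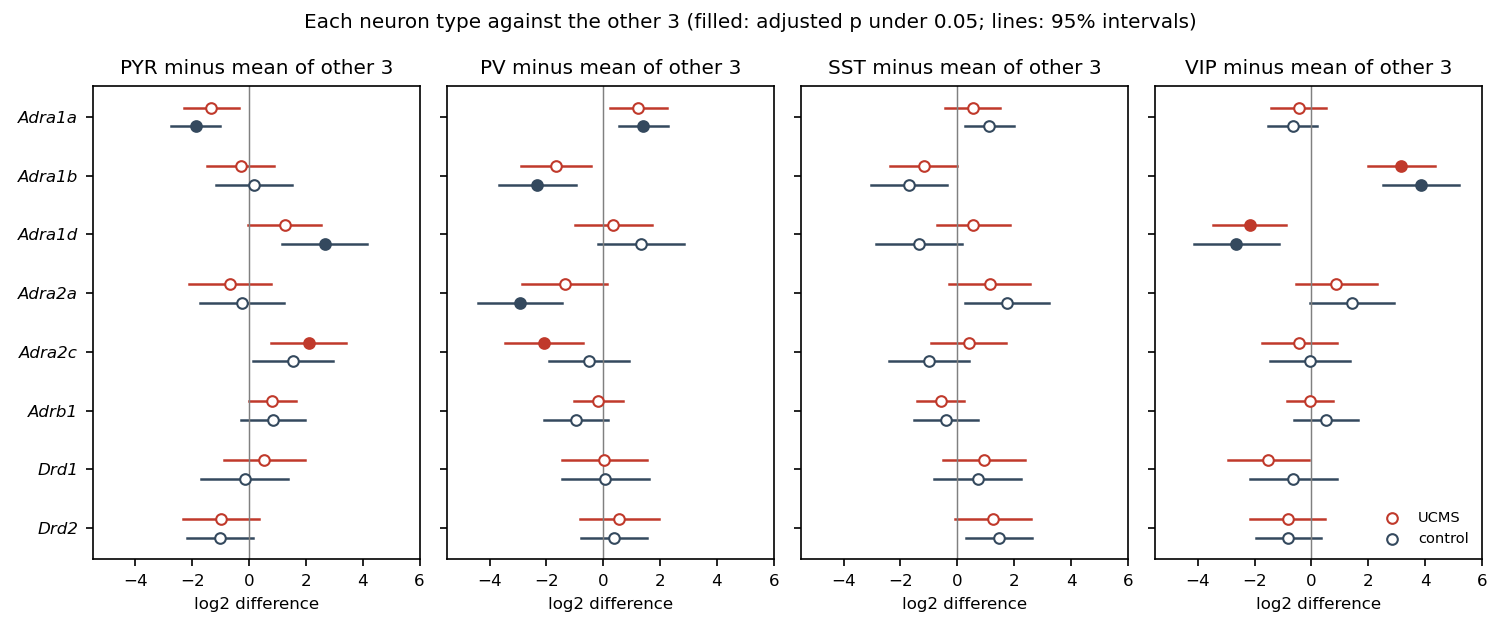
Difference of each neuron type from the mean of the other 3 (horizontal axis, log2 units) for the 8 receptors tested, 1 panel per type. Points are estimates and lines 95% intervals, with UCMS in red above control in blue, and filled points have an adjusted p under 0.05. Filled points of both arms appear for Adra1b and Adra1d in VIP neurons, at 3.16 and -2.17 in UCMS and 3.85 and -2.64 in control mice.

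Between genes, levels were compared per kb of exon, so their order also depends on the exon lengths of GENCODE M21. In VIP neurons Adra1b led with 154 ± 49.1 normalized counts per kb in UCMS and 216 ± 122 in control mice, ahead of Adrb1 with 63.4 ± 44.6 in UCMS and 64.8 ± 31.1 in control mice (SD, n = 10 each). In PYR neurons Adrb1 had 81.9 ± 19.98 in UCMS and 75.6 ± 30.4 in control mice, and Adra1d 74.8 ± 56.9 in UCMS and 94.6 ± 62.1 in control mice, a pair whose order differed between the arms within 1 SD. In PV neurons the highest means per kb belonged to Adra1a with 68.0 ± 41.5 in UCMS mice (SD, n = 9) and 78.0 ± 57.6 in control mice (SD, n = 10), and to Adra1d with 55.4 ± 41.1 in UCMS and 81.3 ± 68.2 in control mice. In SST neurons Adra1d led in UCMS mice with 53.8 ± 37.9, and Adrb1 in control mice with 65.3 ± 58.0 (SD, n = 10 each), again within 1 SD of the next gene, Adra1a. The highest group mean of a dopamine receptor was 25.3 normalized counts per kb, that of Drd1 in control SST neurons.

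Stress changed none of the 9 receptors past the threshold. In PYR neurons 13 of 16092 genes (0.0808%) differed between UCMS and control mice at an adjusted p under 0.05, and in PV, SST and VIP neurons 0 did (0%, limma), where 630, 979 and 1001 genes had an unadjusted p under 0.05. On recovered reads edgeR called 0, 0, 0 and 896 genes in PYR, PV, SST and VIP neurons, and DESeq2 called 32, 46, 30 and 83. The average over the types called 0 of 17427 genes (0%), with 1189 at an unadjusted p under 0.05, and the test of a stress effect that differs between types 0 (0%), with 816. The receptors were called in none of these with limma, and none was called with edgeR or DESeq2 on recovered reads within the types. Drd2 in PYR and VIP neurons and Drd5 in PV and VIP neurons fell below the mean of 10 and were not tested there. Drd5 was also below it over the 79 libraries, so it was not tested in the average or for effects that differ between types.

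In SST neurons Adra1d had the lowest unadjusted p of any receptor. It ranged from 7.51 to 240 with a median of 82.6 in UCMS libraries and from 0 to 182 with a median of 17.0 in control libraries. It was read in 10 of 10 UCMS and 6 of 10 control SST libraries, and 9 of 10 UCMS libraries lay above the control median, while the groups overlapped. UCMS SST libraries also held more reads and genes, with medians of 10960903 reads and 14799 genes in UCMS and 8856504 reads and 13701 genes in control libraries, and their part in these counts was not tested. The log2 fold change of Adra1d, UCMS minus control, was 2.04 (SE 0.93, 95% interval 0.21 to 3.86, limma, unadjusted p = 0.0287, adjusted p = 0.853), against a median of 0.15 over all genes. It was 1.09 with edgeR, 1.08 with DESeq2 and 2.87 with a pseudocount of 1. In VIP neurons it was 0.95 (95% interval -0.95 to 2.84) with limma and 2.27 with edgeR, in PV neurons -0.12 (95% interval -1.86 to 1.62) and in PYR neurons -0.46 (95% interval -1.49 to 0.57). Adra1a in SST neurons had a log2 fold change of -0.51 (95% interval -1.22 to 0.20, adjusted p = 0.888).

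In PV neurons both alpha-2 genes had wide intervals. Adra2c had a log2 fold change of -1.61 (SE 1.01, 95% interval -3.59 to 0.37, limma, adjusted p = 0.982), with 7 of 9 UCMS libraries below the control median. Adra2a had 1.22 (SE 0.76, 95% interval -0.26 to 2.70, adjusted p = 0.982), which rests on the 3 UCMS libraries with reads. The Adra2a value was 1.75 with a pseudocount of 1 and ranged from 1.22 to 6.53 over the alternatives, none of which called it. Adrb1 in PV neurons had 0.78 (95% interval -0.71 to 2.28), and Drd2 1.03 (95% interval -0.80 to 2.85).

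Adra1b in VIP neurons, where it is highest, averaged 520 ± 166 in UCMS and 732 ± 412 in control mice (SD, n = 10 each), with 8 of 10 UCMS libraries below the control median. Its log2 fold change was -0.38 (SE 0.36, 95% interval -1.08 to 0.32, limma, adjusted p = 0.939). Drd1 in VIP neurons had -0.96 (95% interval -2.93 to 1.02, adjusted p = 0.939), again with 8 of 10 UCMS libraries below the control median, but the means were 46.4 in UCMS and 50.02 in control mice. Over the alternatives this Drd1 value ranged from -1.34 with a pseudocount of 1 to -0.095 with edgeR. In PYR neurons, whose intervals were the narrowest for Adrb1, that gene had 0.20 (95% interval -0.53 to 0.93) and Adra2c 0.02 (95% interval -0.90 to 0.94), and Adra1a there had 0.33 (95% interval -0.78 to 1.44), which became -0.16 without control mouse U6.

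Averaged over a mouse's libraries, Drd2 had the lowest unadjusted p, at a log2 fold change of 0.73 (SE 0.38, 95% interval -0.03 to 1.49, limma, unadjusted p = 0.0608, adjusted p = 0.752), with 9 of 10 UCMS mice above the control median. It was 1.26 with a pseudocount of 1. UCMS libraries held more genes with reads in every type, on average 15690 in UCMS and 13922 in control PYR libraries and 15340 in UCMS and 13610 in control VIP libraries, and the median over all genes of this comparison was 0.13. The part of this in the Drd2 value was not tested. Mean normalized counts of Drd2 were 30.7 in UCMS and 31.7 in control PV neurons, and 35.5 in UCMS and 43.1 in control SST neurons. Reads were found in 6 of 9 UCMS and 2 of 10 control PV libraries. Adra1d had 0.61 (95% interval -0.27 to 1.49, adjusted p = 0.83) and Adra2c -0.37 (95% interval -1.20 to 0.45, adjusted p = 0.907), with 8 and 6 of 10 UCMS mice above the control median.

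**Figure D4:**
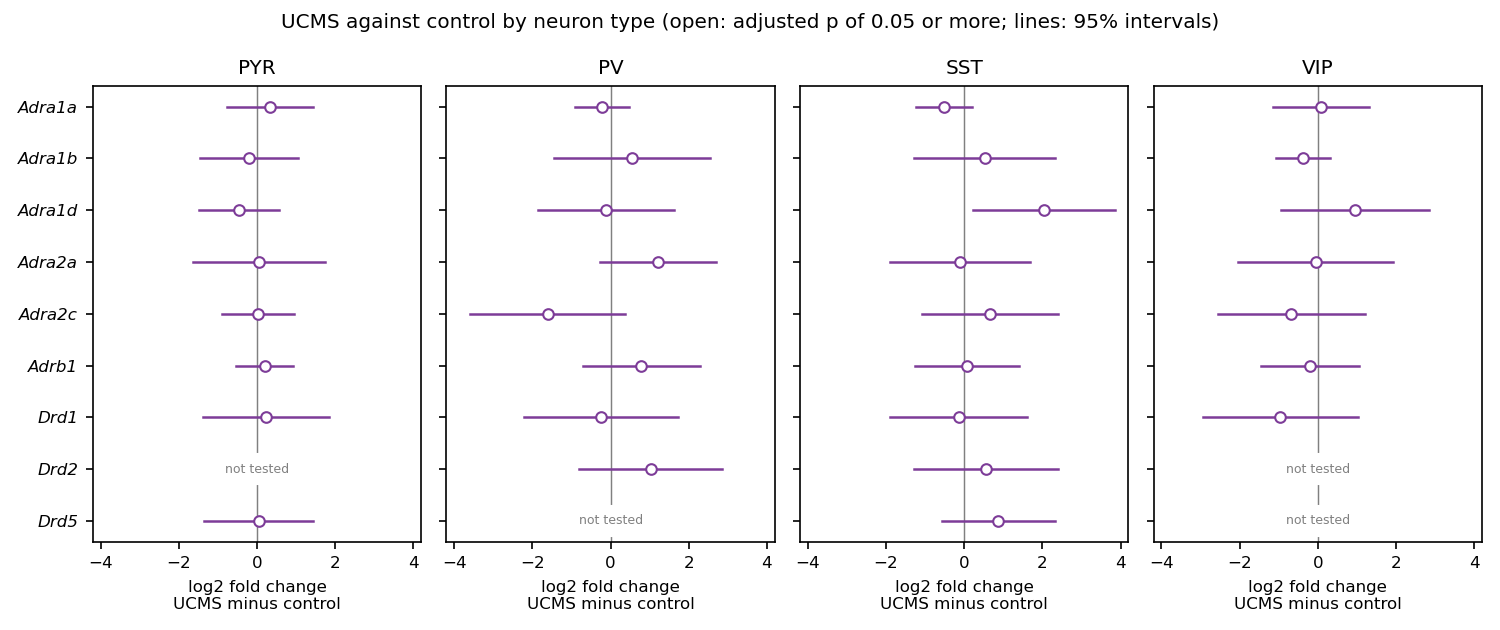
Stress effect on each receptor in each neuron type, as log2 fold change of UCMS minus control (horizontal axis), 1 panel per type. Points are limma estimates and lines 95% intervals, all are open since no adjusted p was under 0.05, and genes with a mean under 10 are marked as not tested. The interval of Adra1d in SST neurons, 0.21 to 3.86, is the one that leaves out 0.

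The genes around the receptors were followed in lists chosen from textbook knowledge with earlier results of these data known. Of the Gq branch, through which alpha-1 receptors act, 8 of 12 tested genes differed among the types of control mice, against 12.3% of all genes. PYR neurons were higher than the other types in 6, against 3.46% of all genes, among them the protein kinase C gene Prkcb (log2 difference 1.13, limma, adjusted p = 8.05e-15) and the IP3 receptor Itpr1 (0.94, adjusted p = 7.16e-10), and the list's median was 0.55, against 0.04 for all genes. SST neurons were lower in 6, where 1.4% of all genes were called higher and 1.09% lower, with Dgkz, a diacylglycerol kinase, at -0.83 (adjusted p = 7.52e-06). VIP neurons, where 2.33% of all genes were called higher and 1.91% lower, were higher in 2, Prkca at 1.00 (adjusted p = 9.53e-05) and the phospholipase Plcb4 at 1.02 (adjusted p = 0.0246), and lower in 1, Itpr1 at -0.45 (adjusted p = 0.00478).

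Of the Gs and Gi branch, 13 of 28 genes differed among types, against 12.3% of all genes. PV neurons were higher in 3 and lower in 5, against 3.65% and 3.7% of all genes, with the Golf subunit Gnal at 0.95 (limma, adjusted p = 0.000102) and the adenylyl cyclase Adcy8 at 1.65 (adjusted p = 0.00338) on the higher side, and Adcy2 at -2.39 (adjusted p = 2.97e-06) and the Gi subunit Gnai2 at -1.36 (adjusted p = 0.000145) on the lower. The phosphodiesterase Pde4b, which breaks down cyclic AMP, was lower in PV neurons at -2.20 (adjusted p = 5.59e-05) and higher in VIP neurons at 1.82 (adjusted p = 0.00273). Of the desensitization and RGS genes 6 of 17 differed, against the same 12.3%, and VIP neurons were higher in 3, against 2.33% of all genes: Rgs12 at 4.37 (adjusted p = 2.44e-11), Rgs16 at 4.00 (adjusted p = 7.36e-06) and Rgs8 at 2.83 (adjusted p = 4.37e-07), genes that shorten G protein signals. Rgs14 was higher in PYR neurons at 3.57 (adjusted p = 0.000222), and Rgs8 lower in PV neurons at -3.37 (adjusted p = 8.44e-10).

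Of the channels that these receptors modulate, 7 of 8 differed among types, against 12.3% of all genes. PV neurons were higher in 4, against 3.65% of all genes, among them Hcn2 at 0.99 (limma, adjusted p = 0.000127) and the GIRK subunit Kcnj3 at 1.62 (adjusted p = 0.00117). VIP neurons were lower in 3, against 1.91% of all genes, among them the M-current subunit Kcnq3 at -0.62 (adjusted p = 0.00403). Of the catecholamine synthesis, transport and breakdown genes, 6 of 11 were tested and 1 differed, against 12.3% of all genes. This was Th, tyrosine hydroxylase, higher in SST neurons at 2.10 (limma, adjusted p = 0.0313), a direction called for 1.4% of all genes. Th had a mean of 57.3 ± 91.6 in UCMS and 54.9 ± 70.3 in control SST neurons (SD, n = 10 each). Dbh, which makes noradrenaline, had 0 reads in every UCMS and control PV library, and also in every UCMS PYR and every control SST library. Of the receptors outside the 9, 4 were matched in the table and 2 were tested, and neither differed among types, against the same 12.3%. No gene of these lists was called in a stress comparison. The lowest unadjusted p in any of them was that of Kcnj3 in VIP neurons, at a log2 fold change of 1.42 (unadjusted p = 0.00097, adjusted p = 0.932).

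Of the markers of glia and vessels, none passed among the types of control mice (limma, 0 of 6 astrocyte, 0 of 5 oligodendrocyte, 0 of 2 oligodendrocyte precursor, 0 of 5 microglia and 0 of 3 tested endothelial and mural genes), against 12.3% of all genes. In UCMS mice Slc1a3, Mbp and Pdgfra passed, 1 gene each of the astrocyte, oligodendrocyte and precursor lists, against 16.3% of all genes. The astrocyte genes summed to 686 to 2447 in UCMS and 504 to 2559 in control VIP libraries, and to 399 to 938 in UCMS and 85.8 to 1506 in control PV libraries. Their part in the receptor values was not tested.

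Likeness was taken on the log2 scale over the 79 libraries, among named genes with a mean of at least 50 normalized counts. The pattern of Adra1b was most like those of Egfr (Pearson r = 0.714), Adarb2 (r = 0.664) and Htr3a (r = 0.654), the last a serotonin-gated channel. Adra1a was close to Grip2 (r = 0.611) and Inpp5b (r = 0.609), and Adrb1 to Sema4d, Tmem59 and Ric3 (r from 0.589 to 0.616). Adra1d was closest to Dnajc6, AI837181 and Dnm1 (r from 0.502 to 0.511), and Adra2a to Synpr, Spag6 and Elfn1 (r from 0.483 to 0.493). Adra2c was close to Eif3e (r = 0.476) and Car10 (r = 0.471), Drd2 to Cort, Csprs and Aldh1l2 (r from 0.475 to 0.534), and Drd1 to Ccdc34, Supt3 and Cox19 (r from 0.446 to 0.501). These libraries share mice, size factors and depth, so the coefficients describe likeness only.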

How the data were processed

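RNA of 130 laser-captured cells per library was sequenced in 79 libraries of 20 mice. The deposited values are a signal, read counts per gene divided by 1 size factor per library, which the authors made with HISAT2, SAMtools 1.3 and DESeq2 on GRCm38 and mm10, per the submitters' processing notes. For the read counter, the annotation and strand the sources used here give nothing. Each value was a whole multiple of the value of 1 read in its library (100% of values, within 0.001 reads), so reads were recovered for edgeR 4.0.16 and DESeq2 1.42.0 as alternatives, and libraries held 3642579 to 13529571 reads. Floors of 3 counts cover counting error only.

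Groups came from the labels. The tests were limma 3.58.1 (R 4.3.3), with trend and robust variance, on log2(normalized count + 4) for genes with a mean of at least 10 in the libraries compared, with Benjamini-Hochberg adjustment over all genes tested at 0.05. Stress was compared within each type and over the means of each mouse. Neuron types, and stress effects that differ between types, were compared with the mouse as a block. For this, libraries with the same number in their titles were taken as coming from the same mouse. Libraries with the same number hardly deviated together, with a median correlation of 0.00773 over 117 pairs, against -0.000989 for different numbers, so the values do not show the pairing. The log2 fold changes understate changes of low genes. Scripts were tested on simulated data. Alternatives were a pseudocount of 1, no minimum mean, a minimum mean of 50, edgeR, DESeq2, other uses of the block, and leaving out each mouse.

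The receptors and lists were chosen with earlier results of these data known, and all 9 receptors were named in every comparison. For likeness, the 3 genes with the highest correlation among genes with a mean of at least 50 were taken, and from each wider list genes with the smallest p in a type. Some genes that these rules pick are not reported here.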

Additional observations from a re-analysis of the deposited data

Results flagged for a closer look

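Of 71 groups of libraries, 18 held a highest library that stood apart from the others by Dixon's criterion. Of these, 8 belong to Drd5, where most libraries had 0 reads. Chance alone meets the criterion in about 1 in 20 groups of normally distributed values. That rate does not hold for skewed counts with many libraries at 0, so the 18 cannot be set against it. A group with reads in a single library meets the criterion in any case. For Drd5 these were UCMS PYR U610 with 44.8 normalized counts, control PYR U8 with 143, UCMS PV U605 with 2.38, control PV U10 with 18.4, UCMS SST U605 with 217, control SST U1 with 9.79, UCMS VIP U610 with 1.33 and control VIP U4 with 6.03. For Drd2 they were control PV U8 with 214 and control VIP U7 with 8.53.

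For Adra2a they were UCMS PYR U609 with 290.5, control PYR U10 with 202, control PV U3 with 1.99 and UCMS SST U609 with 331. Mouse U609 thus held the highest Adra2a value of both its PYR and its SST group. For Adra1a they were UCMS PYR U605 with 675 and UCMS SST U606 with 962. For Adra1d it was control PYR U3 with 465, and for Adra2c control VIP U4 with 384.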

How the results depend on the processing

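The count of receptors that differed among types was 3 in UCMS and 4 in control mice. In UCMS mice it was 1 without the minimum mean, where Adra1d had an adjusted p of 0.106 and Adra2c of 0.0735. In control mice it was 2 without the mice with a library under 6000000 reads, 3 with edgeR, where Adra1d had an adjusted p of 0.0752, and 4 to 4 when each mouse was left out. The type differences were not recomputed with each UCMS mouse left out. Without the replicate block the counts were 3 in UCMS and 4 in control mice, and 0 for stress effects that differ between types. With the mouse as a random replicate block it was 0 for stress in every type. Among the type contrasts called in either arm, the block changed 1 call, since Adra1b in PV neurons of UCMS mice against the other types was -1.75 without it (limma, adjusted p = 0.038). Of the 120 other type differences of the receptors, 11 crossed the threshold in some refit, counted over all settings together. The count of receptors called for stress was 0 under every alternative run, and within the types 0 to 0 when each library was left out. The stress effect on Adra1a in PYR neurons ranged from -0.155 to 0.57 when each library was left out, and was negative without control mouse U6. Among all genes, stress in PYR neurons called 13, against 7 with a pseudocount of 1, 0 without the minimum mean, with a minimum of 50, with edgeR and with the random block, 32 with DESeq2, and 2 to 14 when each library was left out. DESeq2 called 46 in PV, 30 in SST and 83 in VIP neurons, and edgeR 896 in VIP neurons. Both arms together called 4305 genes among types, against 2148 in control mice. The causes were not tested. Low read numbers limit Drd2, Drd5 and Adra2a, whose groups hold many libraries with 0 reads.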
